A study of Boechera gunnisoniana with 7 samples.

Results

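Genes of the large subunit of the cytosolic ribosome were followed on 7 arrays of female reproductive cells and tissue of the apomict *Boechera gunnisoniana*. Of 60 listed *Arabidopsis* gene identifiers of cytosolic 60S ribosomal proteins, 54 had a row in the deposited table, among 21428 genes in all. These 54 genes are called the members. The other 6 (AT1G33140, AT1G74050, AT1G74060, AT2G18020, AT4G18730 and AT4G36130) were not analysed here. Their rows were picked by identifier, with no threshold on a measured value, from a list drawn up with earlier results of these data known.

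The large subunit joins the small subunit on the mRNA and carries the centre that forms the peptide bonds. Its proteins are made in the cytosol, imported into the nucleolus and assembled there on ribosomal RNA, and growing cells spend a large share of their transcription on them. In *Arabidopsis* each protein is encoded by a small family of near-identical paralogs, and the paralogs of a family can differ in where and how strongly they are used.

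*B. gunnisoniana* is triploid, forms its embryo without fertilization and needs fertilization for the endosperm. All plants were untreated and grown in a greenhouse, and cells were cut from sections of buds and flowers by laser-assisted microdissection (LAM) and pooled, so each array stands for a pool and for no single cell. The AIC (the apomictic initial cell, which enters the germline and skips meiosis) and the sporophytic nucellus around it came from young ovules, with 2 arrays each that the submitters call biological replicates. Egg, central and synergid cells came from mature gametophytes of emasculated flowers, with 1 array each, so their values have no replicate error. Signals are given as log2 values, on which 1 unit is a doubling. The probes were designed on *Arabidopsis* transcripts, so a signal also depends on how well *Boechera* RNA matches them, and probes of near-identical paralogs may take up each other's RNA. Therefore signals of different genes are not compared as amounts. Only how a gene, or the difference between paralogs, moved from array to array is described, and cross-hybridization itself was not tested.

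The central cell array stood apart from the rest. Its values over all genes spanned a narrower range, with an SD of 1.11 against 1.24 to 1.44 on the other arrays, and its 99th percentile lay at 7.53 against 8.51 to 9.18. Strong signals were therefore low on it in general, and the main results that rest on this array are given with the deposited values and also by percentile (the share of the 21428 genes with a value at or below that of the gene on the same array) or after quantile normalization, which gives all arrays the same distribution. The hybridization controls read 10.7, 11.4 and 12.5 on the egg, central and synergid arrays and 9.25 to 10.3 on the young ovule arrays. Of the marker genes used to check the labels, both measured synergid markers were highest on the synergid array (AT4G18770 at 6.61 against 3.18 to 3.91 elsewhere). The central cell array had the highest value of 4 of 6 central cell markers, against 24.7% of all genes. Only AT5G48670 of the 6 was in the top 25% there, at 6.60 against 6.10 in the egg cell and 6.14 in the synergid cells. Of 4 measured meiocyte markers, 3 were highest on AIC 1, while AT1G67370 read 6.09 on nucellus 2 and 2.88 to 3.46 elsewhere. On AIC 2, AT3G22880 (4.12) was above both nucellus arrays (3.66 and 3.21). There AT5G05490 (3.8 against 4.66 and 3.88) and AT3G13170 (4.1 against 4.11 and 4.21) were below both. AIC 2 thus gave no clear sign of the AIC label. The 3 measured markers of the young ovule sporophyte were in the top 25% on no array, and only AT4G27330 was highest on a nucellus array, so they gave no sign of the nucellus label. Both measured egg cell markers, of 5 listed, lay between 2.74 and 3.23 on every array, the egg cell array included, so they gave no sign of the labelled cell. The study's methods describe the gametophyte samples as strongly enriched but not free of neighbouring cells, and the AIC samples as holding a little nucellus. The part of such admixture in the results was not tested.

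The members were among the strongest signals in every cell type. Their median was 8.39 and 8.78 in the AIC, 8.66 and 8.09 in the nucellus, 8.04 in the egg cell, 6.81 in the central cell and 8.00 in the synergid cells. The median of all genes lay between 4.0 and 4.16. In percentile terms the members' median was between 97.1 (central cell) and 98.8 (AIC 2), so the low log2 median of the central cell array hardly showed in rank. Between 47 and 50 of the 54 members were in the top 25% of the genes of an array, the fewest on the central cell array and the most on AIC 2. The top 1% held 18 and 21 members in the AIC, 20 and 14 in the nucellus, 18 in the egg cell, 12 in the central cell and 24 in the synergid cells. A total of 45 members were in the top 25% on all 7 arrays, and 8 were in the top 1% on all 7.

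**Figure D1:**
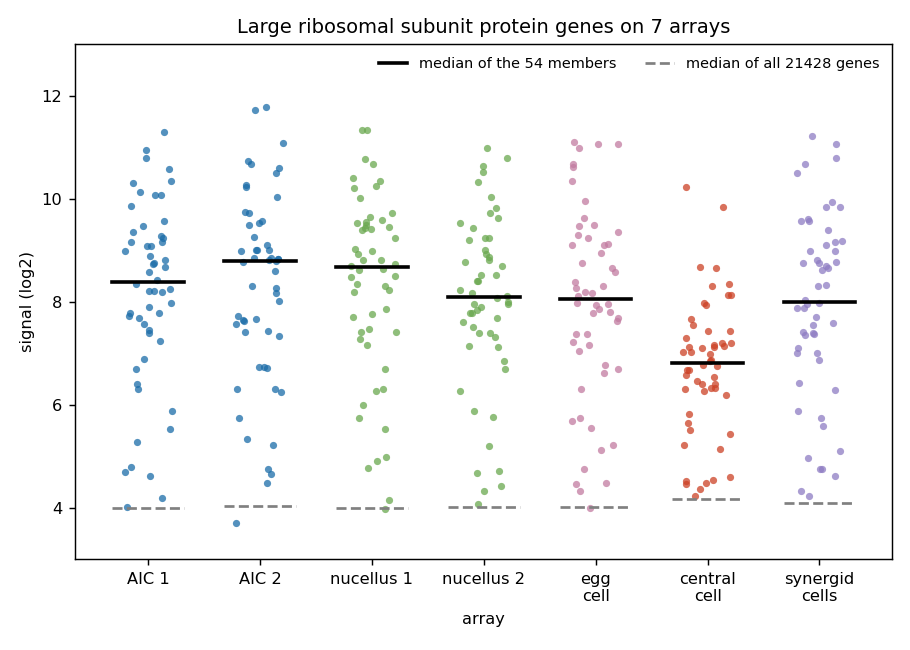
Log2 signal of the 54 members on each of the 7 arrays, with the members' median (black line) and the median of all 21428 genes (dashed grey line); points are spread sideways only to separate them. The members' median lies between 8.00 and 8.78 on 6 arrays and at 6.81 on the central cell array, while the median of all genes stays between 4.0 and 4.16.

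The members with the highest mean percentiles were AT3G04400, AT1G14320, AT1G08360, AT1G67430 and AT3G13580. The signal of AT3G04400 was 11.30 and 11.78 in the AIC, 11.33 and 10.78 in the nucellus, 11.09 in the egg cell, 10.22 in the central cell and 11.21 in the synergid cells. It was in the top 1% on all 7 arrays, and the low central cell value appeared only on the log2 scale. AT1G14320 read 10.79 and 11.08 in the AIC, 10.77 and 10.62 in the nucellus, 11.06 in the egg cell, 9.84 in the central cell and 10.79 in the synergid cells. Its percentile on the central cell array was 99.9. AT1G08360 was highest in the egg cell, at 11.05, against 10.31 and 10.59 in the AIC, 9.82 and 10.41 in the nucellus, 8.64 in the central cell and 10.68 in the synergid cells. AT3G13580 lay between 9.57 and 10.49 on 6 arrays and at 7.93 in the central cell.

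At the other end, 3 members were in the top 25% on no array: AT2G47570, AT3G49010 and AT3G51190. The signal of AT2G47570 was 4.01 and 3.71 in the AIC, 3.97 and 4.07 in the nucellus, 4.0 in the egg cell, 4.53 in the central cell and 4.62 in the synergid cells. Its percentile ran from 38.4 to 66.4, near the middle of all genes, with the higher values in the central and synergid cells. AT3G51190 was between 4.16 and 4.53, and AT3G49010 between 4.22 (synergid cells) and 4.99 (nucellus 1). AT5G23900 was just inside the top 25% on AIC 2 only, with a percentile of 77.5 there and of 59.4 to 72.3 elsewhere. AT2G44120 was inside only on the central cell array, and AT2G37190 was outside only on the synergid array.

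The steadiest members had moderate or low signals. AT4G10450 was at 6.30 on 5 arrays, at 6.26 on nucellus 2 and at 6.29 in the synergid cells. AT3G48960 lay between 5.10 and 5.52. AT5G39740 read 6.89 and 6.73 in the AIC, 6.70 on both nucellus arrays and in the egg cell, 6.67 in the central cell and 6.42 in the synergid cells. Exactly equal values occurred for 12 of the 54 members on at least 2 arrays, and AT4G10450 had the same value on 5, so a small SD of such a gene is not a measure of biological steadiness.

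Arrays of the same cell type differed by a pooled SD of 0.24 for the median member, with 0.02 for AT4G10450 and 0.98 for AT3G16780 as the extremes. Most of the large gaps were in the nucellus pair. AT3G16780 read 9.45 on nucellus 1 and 7.50 on nucellus 2, and AT2G33370 read 9.52 and 7.60. Of the 54 members, 40 were lower on nucellus 2 than on nucellus 1 and 11 were higher, with a median difference of -0.25. On AIC 2, 36 were higher than on AIC 1 and 17 lower, with a median difference of 0.11.

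To ask whether the germline precursor differed from the surrounding sporophytic tissue, the AIC was compared with the nucellus. The members' median difference was 0.06 in favour of the AIC, 32 members were higher in the AIC and 22 lower, and the median over all genes was -0.01. The sign of the members' median turned without nucellus 2 (-0.097) and without AIC 2 (-0.01). Both AIC arrays were above both nucellus arrays for 6 members (11.1%, against 12.7% of all genes), and both were below for 3 (5.56%, against 14.3%). With limma, 0 of the 54 passed an adjusted p of 0.05 (0% of all genes did), and 4 had an unadjusted p under 0.05, against 3.82% of all genes.

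Among the 4 members with the smallest unadjusted p, AT3G07110 read 10.33 and 10.22 in the AIC and 9.73 on both nucellus arrays. The difference was 0.55 (SE 0.11, adjusted p = 0.938 with limma), and the groups did not overlap. AT1G04480 read 9.27 and 9.0 in the AIC and 8.63 and 8.18 in the nucellus, a difference of 0.73 (SE 0.23). In the opposite direction, AT3G14600 read 6.68 and 6.71 in the AIC and 7.16 and 7.31 in the nucellus, a difference of -0.54 (SE 0.12). AT1G80750 read 7.57 and 7.56 against 8.19 and 7.95, a difference of -0.50 (SE 0.14). The adjusted p was 0.938 for all 4. Several other members at the ends of the ranking depended on 1 array. AT2G33370 had a difference of 0.44 (SE 0.77) that turned to -0.52 without nucellus 2, AT3G09630 of 0.44 (SE 0.41) that turned to -0.07, and AT3G58700 of -0.22 (SE 0.32) that turned to 0.14. For AT3G04400 (0.48, SE 0.30), AT2G39460 (-0.26, SE 0.17) and AT5G22440 (-0.29, SE 0.24) the sign held without each replicate in turn. Other genes of the cytosolic ribosome had medians of the same size, 0.11 for 58 further 60S genes and 0.13 for 66 genes of the small subunit (40S), with 0 past the threshold in both lists and directions. With 2 arrays a group and 2 residual degrees of freedom, a count of 0 does not exclude differences of several fold.

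The mature gametophyte cells were then compared with the young ovule (AIC and nucellus together). The nucellus is sporophytic and no cell type was sampled at both stages. Stage and cell type therefore cannot be told apart in this comparison. Members read lower in the mature cells, with a median difference of -0.65, 48 of 54 lower and 6 higher, while the median over all genes was 0.05. All 3 gametophyte arrays were below all 4 young ovule arrays for 15 members (27.8%, against 3.97% of all genes), and above for 0 (against 7% of all genes). With limma 0 of 54 members passed an adjusted p of 0.05, against 0.00467% of all genes, and 14 had an unadjusted p under 0.05, against 11.1% of all genes. The spread behind these p-values is that between the arrays of a stage, so it includes differences between cell types. In a fit with 1 mean per cell type the members' median difference was also -0.65. Strong signals as a class read lower too: the median was -0.71 for the 869 genes with a mean of 7 or more, -0.55 for the other 60S genes and -0.48 for the 40S genes, with 0 of each list past the threshold in either direction. The size of the members' difference depended on the central cell array. Without it the median was -0.19, with 37 lower and 17 higher, and after quantile normalization of all arrays it was -0.18, with 3 members below without overlap (6.07% of all genes were) and 2 above (6.08% of all genes). The hybridization controls separated the stages too, being higher on all 3 mature arrays, and their part in the result was not tested.

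The share of members without overlap after quantile normalization was thus no larger than that of all genes. The 3 members below without overlap on both scales, given as a description, were AT1G27400, AT5G48760 and AT2G37190. AT1G27400 read 7.89 and 7.62 in the AIC, 7.86 and 7.77 in the nucellus, 6.76 in the egg cell, 4.49 in the central cell and 7.0 in the synergid cells. Egg and synergid cells were thus below the young ovule range of 7.62 to 7.89, and the central cell was far below it. The stage difference was -1.70 (SE 0.58, adjusted p = 0.411 with limma), and without the central cell array it was -0.90. AT5G48760 was between 8.21 and 8.48 in the young ovule and read 7.95 in the egg cell, 6.84 in the central cell and 7.39 in the synergid cells. AT2G37190 was between 5.88 and 6.26 in the young ovule and read 5.69 in the egg cell, 5.44 in the central cell and 4.75 in the synergid cells. It was lowest in the synergid cells and not in the central cell.

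AT3G58700 had the smallest p of the members in this comparison. It read 9.09 and 8.81 in the AIC, 8.81 and 9.54 in the nucellus, 7.61 in the egg cell, 7.29 in the central cell and 8.30 in the synergid cells. The difference was -1.33 (SE 0.29, unadjusted p = 0.00266, adjusted p = 0.268 with limma). Its measured paralog AT2G42740 had the same order of stages, from 5.99 to 6.86 in the young ovule, 5.21 in the egg cell, 5.22 in the central cell and 5.75 in the synergid cells. In both genes the synergid cells were the nearest to the young ovule. After quantile normalization each of them overlapped between the stages. Low egg and central cell signals without a low synergid signal marked AT3G14600, which read 5.54 in the egg cell and 4.24 in the central cell, but 7.0 in the synergid cells, inside its young ovule range of 6.68 to 7.31. The stage difference of AT3G14600 was -1.38 (SE 0.60). Of the members that read higher in the mature cells, AT1G61580 (0.54, SE 0.33), AT2G47570 (0.44, SE 0.19), AT2G44120 (0.39, SE 0.30), AT1G04480 (0.16, SE 0.35) and AT3G51190 (0.11, SE 0.13) had the largest differences, with adjusted p between 0.450 and 0.859. Without the central cell array AT1G61580 differed by 0.11 and AT2G44120 by 0.03. For AT1G04480 the sign turned without nucellus 2 (-0.03) and without the synergid array (-0.07). The 2 members above without overlap after quantile normalization were AT1G04480, with a difference of 0.89 on that scale, and AT4G27090. The difference of AT4G27090 was 0.56 on that scale and -0.18 as deposited.

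**Figure D2:**
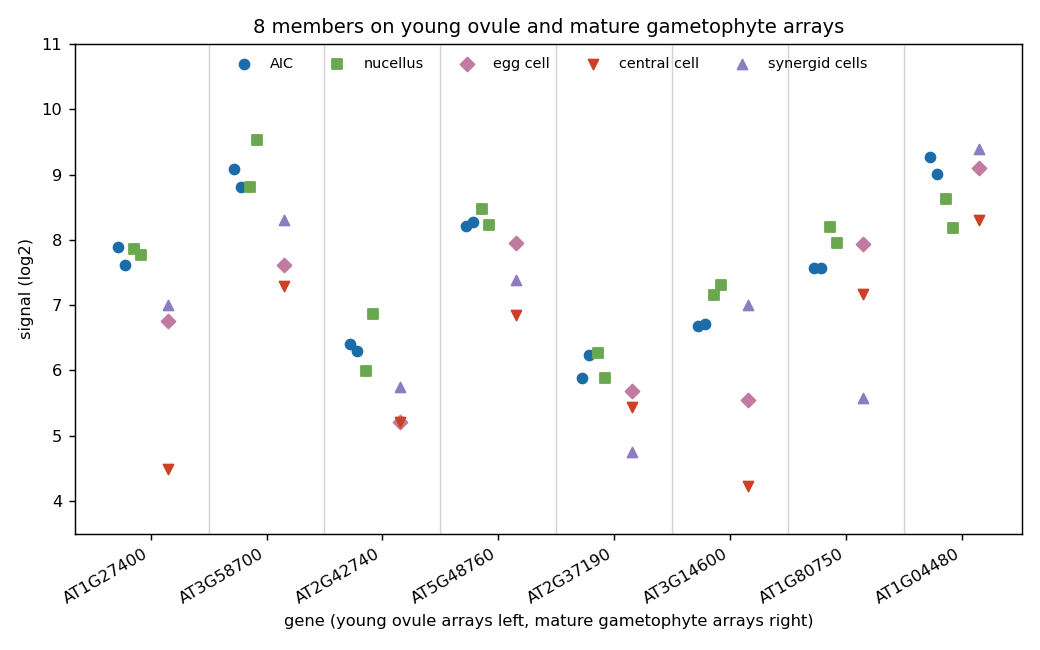
Log2 signal of 8 members on each array, with the 4 young ovule arrays (AIC, circles; nucellus, squares) on the left and the 3 mature gametophyte arrays (egg cell, diamond; central cell, downward triangle; synergid cells, upward triangle) on the right of each column. For AT1G27400 the gametophyte values of 4.49 to 7.0 lie below the young ovule values of 7.62 to 7.89, whereas AT1G80750 is low only in the synergid cells, at 5.58.

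Within the mature gametophyte each cell type was compared with the mean of the other two. These 3 comparisons share the same arrays and are not independent, and each array was assumed to vary as the AIC and nucellus pairs do. In such pools, fewer cells of a type and less RNA per cell cannot be told apart.

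In the central cell the members were low. Compared with all 6 other arrays, 40 of 54 members (74.1%) had their lowest value there, against 11.3% of all genes and 60.6% of the 869 genes with a mean of 7 or more. A total of 3 members (5.56%) had their highest value there, against 24.7% of all genes. The median difference from the mean of the other arrays was -1.24, and -1.28 for the 869 genes. After quantile normalization 21 members (38.9%) were lowest and 10 (18.5%) highest on the central cell array, and the median difference was -0.25. For all genes the shares were 15.7% and 23.2%, and for the 869 strong genes 36.5% and 21.3%, with a median of -0.31. By the median the members were thus about as low on this array as strong genes in general, on both scales. Against the egg and synergid cells the median difference was -1.02, with 42 members lower and 12 higher. For the 869 strong genes it was -1.10, with 716 lower and 153 higher. The count of unadjusted p-values that follows is therefore no result particular to the members. With limma 0 of 54 passed an adjusted p of 0.05 (0% of all genes did), the lowest adjusted p was 0.187, and 34 had an unadjusted p under 0.05, against 16.7% of all genes. The other 60S genes had a median of -1.17 and the 40S genes of -1.08, with 0 past the threshold in either direction.

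Some members were much lower in the central cell than the general shift. AT1G67430 read 10.93 and 11.72 in the AIC, 11.33 and 10.98 in the nucellus, 10.99 in the egg cell and 11.06 in the synergid cells, but 7.15 in the central cell. The difference from the egg and synergid cells was -3.88 (SE 0.43), or 14.7-fold (adjusted p = 0.187 with limma), and yet its percentile was 98.2. AT4G16720 read from 10.21 to 10.68 on 6 arrays and 6.87 in the central cell (difference -3.71, SE 0.19). AT3G62870 read from 9.93 to 10.61 on 6 arrays and 7.13 in the central cell (difference -3.14, SE 0.14). Both differences had an adjusted p of 0.187 with limma, and in both genes the 6 other arrays lay close together. After quantile normalization the differences from the egg and synergid cells were -2.85 for AT1G67430 and AT4G16720 and -2.07 for AT3G62870. AT3G05590 read 10.07 and 10.73 in the AIC, 10.66 and 9.63 in the nucellus, 10.34 in the egg cell, 6.40 in the central cell and 9.83 in the synergid cells, with a difference of -3.69 (SE 0.60), which was -3.0 after quantile normalization. AT2G47610 read from 8.12 to 9.63 on 6 arrays and 5.64 in the central cell, where its percentile was 86.9 against 97.8 to 99.5 elsewhere.

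The drop in rank was largest for 3 members, the ones that were outside the top 25% on the central cell array alone. AT3G16780 read 8.58 and 8.84 in the AIC, 9.45 and 7.50 in the nucellus, 8.58 in the egg cell, 4.60 in the central cell and 8.69 in the synergid cells. Its percentile was 63.5 in the central cell and 95.8 to 99.3 elsewhere. The difference from the egg and synergid cells was -4.04 with an SE of 0.95 (adjusted p = 0.223 with limma), beside a pooled SD within the pairs of 0.98. AT1G27400 had a percentile of 60.3 in the central cell against 92.8 to 96.9, and AT3G14600 of 52.5 against 82.1 to 96.0. At 4.49 and 4.24 on the central cell array, both were near its median of all genes, 4.16.

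Other members ranked higher in the central cell than elsewhere. AT1G61580 read 5.52 and 5.75 in the AIC, 5.74 and 5.76 in the nucellus, 5.74 in the egg cell, 7.09 in the central cell and 5.88 in the synergid cells. The central cell value was the only one outside a narrow range, and its percentile was 98.1 against 81.8 to 88.5. The difference from the egg and synergid cells was 1.28 (SE 0.16), a 2.44-fold higher signal, with an adjusted p of 0.187 with limma. AT2G44120 read 4.69 and 4.65 in the AIC, 4.77 and 4.68 in the nucellus, 4.48 in the egg cell, 5.83 in the central cell and 4.97 in the synergid cells (difference 1.10, SE 0.13, adjusted p = 0.187 with limma). Its percentile was 89.5 in the central cell and 63.1 to 74.7 elsewhere. AT3G51190 had its highest log2 value there, at 4.53 against 4.16 to 4.47, but not its highest rank. Its percentile was 61.7 in the central cell and 62.7 on AIC 2. AT5G22440 kept its signal in the central cell, with 7.02 there and 6.62 to 7.42 elsewhere, which was a percentile of 97.9 there and of at most 95.5 elsewhere. In all, 6 members lay at least 10 percentile points below the mean of the other arrays on the central cell array, and 3 at least 10 points above. The share of all genes that did so was not determined, so these counts are a description only. Near the middle of the distribution a percentile can move as far between replicates. AT2G47570, 1 of the 3 above, had percentiles of 50.3 and 38.4 on the AIC arrays.

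**Figure D3:**
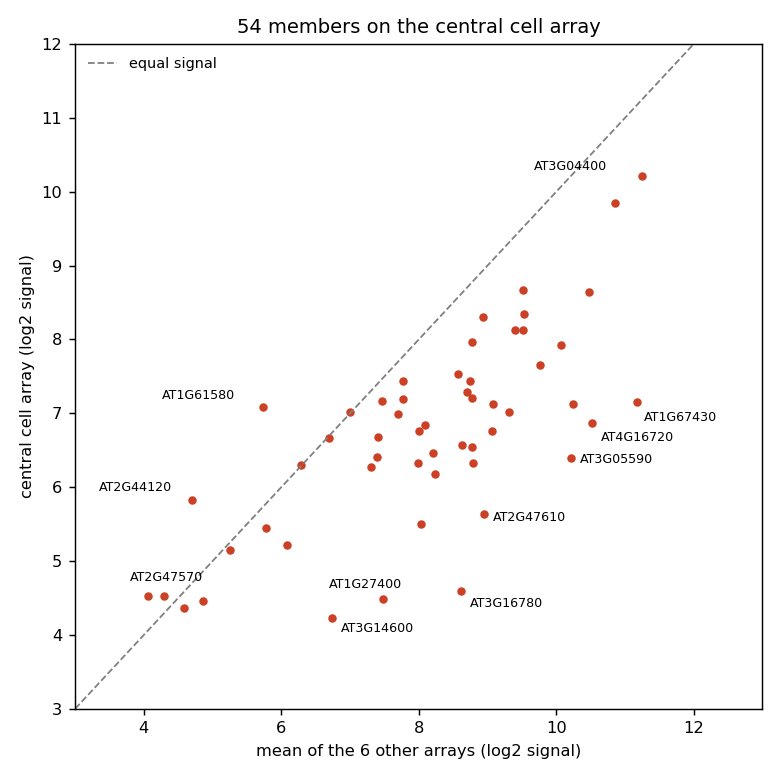
Log2 signal of the 54 members on the central cell array (vertical) against their mean on the 6 other arrays (horizontal), with the dashed line at equal signal. Most members lie below the line (median difference -1.24), AT1G67430 and AT3G16780 by 4.02 and 4.01, while AT1G61580 and AT2G44120 lie above it by 1.36 and 1.12.

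The order of the members' signals was also least alike on this array. Across the 54 members Spearman's rho was between 0.92 and 0.98 for the 15 pairs of arrays without the central cell, and between 0.64 and 0.72 for the 6 pairs with it. Across the 58 other 60S genes the values were 0.96 to 0.99 and 0.91 to 0.92, and across the 66 40S genes 0.95 to 0.99 and 0.88 to 0.90. Across the 869 strong genes they were 0.29 to 0.78 and 0.18 to 0.32. Across 18 genes of 60S assembly and the nucleolus they were 0.53 to 0.89 and 0.18 to 0.59. Across 21 nuclear genes of plastid 50S proteins they were 0.7 to 0.942 and 0.719 to 0.825. Across all genes they were 0.837 to 0.932 and 0.835 to 0.856. Low values with this array were thus shared by the strong genes and the assembly factors, but not by the other 60S and 40S genes. The strong genes had low values without this array too. The members' SD on it was 1.33, against 2.09 for the other 60S genes and 1.92 for the 40S genes. The part of this narrower range in rho was not tested. All of these correlations are across genes, which share the probes and the array and are not replicates, and the central cell has 1 array.

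In the egg cell 43 members were above the mean of the central and synergid cells and 11 below, with a median of 0.47. After quantile normalization the median was -0.05, so the sign of this difference depended on the scale. With limma 0 of 54 passed (0% of all genes), and 19 had an unadjusted p under 0.05, against 17.1% of all genes. The highest differences were those of AT3G05590 (2.23, SE 0.60), AT3G62870 (2.08, SE 0.14), AT4G16720 (2.00, SE 0.19), AT3G16780 (1.93, SE 0.95) and AT1G67430 (1.88, SE 0.43), and these were also the 5 lowest (5 shared) in the central cell comparison, which uses the same arrays. Set against the synergid cells alone the egg cell values of AT3G62870 (10.61 and 9.93) and AT3G05590 (10.34 and 9.83) were still higher, while AT1G67430 (10.99 and 11.06) and AT3G16780 (8.58 and 8.69) were not. The lowest differences belonged to AT2G44120 (-0.92, SE 0.13), AT1G61580 (-0.75, SE 0.16), AT2G47570 (-0.57, SE 0.20), AT5G60670 (-0.35, SE 0.31) and AT5G22440 (-0.32, SE 0.30), with adjusted p from 0.194 to 0.652. AT5G60670 had its lowest signal of the 7 arrays in the egg cell, at 7.17 against 7.44 to 8.31.

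In the synergid cells 44 members were above the mean of the egg and central cells and 10 below, with a median of 0.57, which was 0.38 after quantile normalization. Against the egg cell alone the median difference was 0.03 as deposited, with 29 members higher in the synergid cells and 23 lower. With limma 0 of 54 passed (0% of all genes), and 18 had an unadjusted p under 0.05, against 12.7% of all genes. AT2G47610 (2.27, SE 0.67), AT3G16780 (2.11, SE 0.95), AT3G14600 (2.10, SE 0.14), AT1G67430 (2.00, SE 0.43) and AT4G16720 (1.72, SE 0.19) had the highest differences. For AT3G14600 both other gametophyte cells were low, and for the other 4 the central cell was the lowest. The median of the other 60S genes was 0.84 and that of the 40S genes 0.61, with 0 past the threshold in either direction.

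AT1G80750 was low in the synergid cells. It read 7.57 and 7.56 in the AIC, 8.19 and 7.95 in the nucellus, 7.93 in the egg cell, 7.17 in the central cell and 5.58 in the synergid cells. Its synergid signal was 1.96 (SE 0.17) below the mean of the egg and central cells, a 3.90-fold difference with an unadjusted p of 0.000917 and an adjusted p of 0.293. The percentile was 85.0 in the synergid cells and 95.9 to 98.3 on the other arrays. AT2G37190 was also lowest in the synergid cells, at 4.75 against 5.44 to 6.26 (difference -0.82, SE 0.28), and its percentile of 69.8 there compares with 83.7 to 89.9 elsewhere. AT5G39740 (-0.27, SE 0.14) and AT3G49010 (-0.19, SE 0.30) followed with small differences.

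Differences between paralogs were followed in 20 groups with at least 2 measured members, which held 51 of the 54. The groups were sorted from general knowledge of *Arabidopsis* ribosomal proteins, as no annotation came with the files. For each member, its difference from the mean of its group was taken on each array. In 13 of the 20 groups the same member had the highest signal on all 7 arrays, and in 7 the member with the highest signal was not the same on all. The order on an array is one of probe signals and not of transcript amounts, so it does not say which paralog was used most, and only its movement between arrays is described. The member with the highest signal in the central cell was another than on most arrays in 4 groups, in 3 of them on that array only. A total of 19 members moved by more than 1 from their group mean between arrays, and 7 did so without the central cell array.

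The clearest movement was between AT1G43170 and AT1G61580. AT1G43170 read 7.46 and 7.41 in the AIC, 7.42 and 7.40 in the nucellus, 7.22 in the egg cell, 6.68 in the central cell and 7.54 in the synergid cells, and was above its paralog by 1.49 to 1.93 on 6 arrays. In the central cell AT1G61580 was the higher by 0.41. Relative to the group mean, AT1G61580 was at 0.20 in the central cell and between -0.97 and -0.74 elsewhere, and the pooled SD of this value within the AIC and nucellus pairs was 0.07. The movement was equally large after quantile normalization, with a range over the arrays of 1.23 against 1.17.

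The signals of AT4G16720 and AT4G17390 also changed order. AT4G17390 read 8.98 and 9.0 in the AIC, 8.98 and 8.77 in the nucellus, 8.16 in the egg cell, 7.20 in the central cell and 8.77 in the synergid cells. AT4G16720 was above it by up to 2.52 (egg cell) on 6 arrays and below it by 0.33 in the central cell. After quantile normalization AT4G17390 was at 0.25 from the group mean in the central cell and between -1.32 and -0.61 elsewhere. In the pair of AT3G25520 and AT5G39740, the signal of AT3G25520 was 7.68 and 7.34 in the AIC, 7.27 and 7.39 in the nucellus, 7.04 in the egg cell, 6.27 in the central cell and 7.11 in the synergid cells, while AT5G39740 moved little as deposited. The latter was the higher only in the central cell. After quantile normalization AT5G39740 moved more, with 7.46 in the central cell and 6.50 to 6.72 elsewhere, against 6.82 and 6.89 to 7.41 for AT3G25520. In the group of AT3G53430, AT5G60670 and AT2G37190, AT3G53430 had the highest signal on 5 arrays and AT5G60670 in the central cell (7.44 against 6.33) and the synergid cells (7.59 against 7.36).

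Among larger groups the strongest movements were those of AT2G47570, AT3G05590, AT2G44120, AT3G16780 and AT1G80750. The difference of AT2G47570 from its group mean was -1.22 in the central cell and between -4.10 and -3.08 on the other arrays, and that of its paralog AT3G05590 was 0.65 against 2.11 to 2.92. As deposited, the paralogs drew together because the strong signal was low and the weak one was not. AT2G47570 read only 3.71 to 4.62 over all arrays, with percentiles of 38.4 to 66.4. After quantile normalization AT2G47570 was at -1.69 in the central cell and between -3.97 and -3.16 elsewhere. AT2G44120 was at -1.19 in the central cell and between -3.44 and -2.31 elsewhere, relative to AT1G80750, AT2G01250 and AT3G13580, and after quantile normalization at -1.78 and between -3.32 and -2.37. In this group AT2G01250 read 7.13 in the central cell and 8.51 to 9.49 elsewhere. AT2G44120 itself read 5.83 in the central cell (percentile 89.5) and 4.48 to 4.97 elsewhere (percentiles 63.1 to 74.7). Whether the signals of AT2G47570, and of AT2G44120 outside the central cell, lay above background was not tested. The paper detected fewer genes above background on the central cell array than on any other. A signal at background leaves a difference from the group mean that moves with the other paralogs only. AT1G80750 was at -1.69 in the synergid cells and between -0.39 and 0.15 on the other arrays, a range of 1.85 that was the same without the central cell array.

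AT3G16780 was at -1.33 in the central cell and between -0.31 and 0.61 elsewhere, beside a pooled SD within pairs of 0.46. Of its group, AT1G02780 (8.67 and 9.26 in the AIC, 9.38 and 8.81 in the nucellus, 9.49 in the egg cell, 6.77 in the central cell and 8.81 in the synergid cells) had the highest signal on 6 arrays. AT3G16780 was ahead on nucellus 1 by a small margin (9.45 against 9.38), a gap below the spread of either gene within the pairs. AT4G02230 read from 7.11 to 7.70 on 6 arrays and 6.41 in the central cell, and so passed AT3G16780 there only.

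The highest signal also alternated between AT2G20450 and AT4G27090, and between AT2G36620 and AT3G53020. AT2G20450 was higher on AIC 1 and both nucellus arrays, and AT4G27090 on AIC 2 and in all gametophyte cells, with gaps between 0.08 and 0.64. AT2G36620 and AT3G53020 differed by as little as 0.01 on nucellus 2 and by 1.11 in the central cell, where AT3G53020 read 7.02 and AT2G36620 8.13. For these groups the AIC arrays themselves disagreed on the order.

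**Figure D4:**
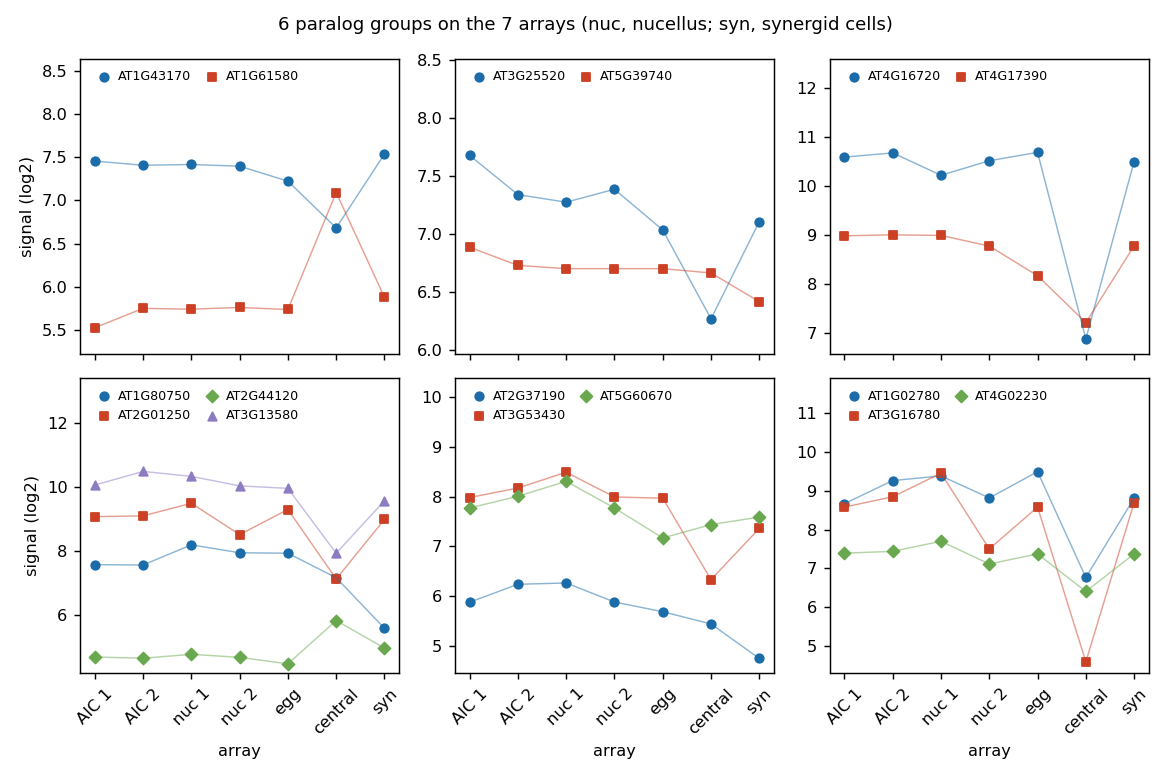
Log2 signal of the members of 6 paralog groups on the 7 arrays, 1 panel a group; thin lines join the points of a gene only to guide the eye. In the upper row the signals exchange order on the central cell array alone, and in the lower row AT1G80750 reads 5.58 in the synergid cells, AT5G60670 has the highest signal in the central and synergid cells, and AT3G16780 reads 4.60 in the central cell, the lowest of its group.

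In groups where the same member had the highest signal throughout, the difference between paralogs still moved. AT3G09630 was above AT5G02870 by 1.05 to 2.48, with the largest gap in the central cell (8.67 against 6.18). AT1G67430 was above AT1G27400 by 2.66 to 4.23, and AT2G34480 above AT3G14600 by 1.37 to 3.20. AT2G39460 and AT3G55280 were within 0.24 to 0.91 of each other on 6 arrays and 2.04 apart in the central cell, where AT3G55280 read 5.50 and AT2G39460 7.54. Of AT3G62870 and AT2G47610 the former was higher everywhere, by 0.61 to 2.49. In the group of AT3G07110, AT3G24830, AT4G13170 and AT5G48760, AT4G13170 read 7.97 in the synergid cells, its highest signal, above its young ovule range of 7.68 to 7.75, while its 3 paralogs read lower there than on any young ovule array. AT1G66580 was likewise highest in the synergid cells, at 9.84 against 8.12 to 9.53, and its paralog AT1G26910 was within 7.19 to 8.11 on all arrays. The 20 groups as a whole did not become narrower or wider in the central cell in a way that held on every scale. The distance between the highest and lowest member had its smallest value of the 7 arrays there in 8 groups and its largest in 5. After quantile normalization this was so in 5 and 7, and by percentile in 4 and 9. The median distance there was 1.94 as deposited, within the range of the other arrays (1.69 to 2.34). It was the largest after quantile normalization (2.71 against 1.56 to 2.31) and by percentile (8.2 points against 2.7 to 3.9).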

How the data were processed

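RNA of 7 LAM samples had been amplified with the MessageAmp II kit, labelled with biotin and hybridized to *Arabidopsis* ATH1 GeneChips. The authors deposited log2 expression values, 1 per gene and array, from ATH1 probes regrouped by gene (TAIRG). The study's methods refer to earlier work for array processing and name RMA for the log2 values of heatmaps. Whether RMA made the deposited table is not stated. Of 21492 features, 64 were controls and were left out. Array data have no read depth, so the number of arrays limits precision. The labels do not say whether replicate samples came from separate plants, and p-values then measure only the spread between these samples.

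Comparisons used limma 3.58.1 (lmFit, eBayes; R 4.3.3) on all genes, with Benjamini-Hochberg adjustment and a threshold of 0.05. There was 1 mean per cell type (2 residual degrees of freedom), or 1 per stage for young against mature (5 degrees of freedom). The routine was tested on simulated data. Ranks and paralog differences were computed in Python 3.11.15 with pandas 2.3.3. Genes at the ends of each comparison, of SD, of percentile and of paralog movement were named with values, 5 at each end, and any member could be named. Alternatives were quantile normalization, centring on the median, a filter on weak genes, a trended prior, percentiles, a replicate block and each array left out. For young against mature, 1 mean per cell type was a further alternative. The members, gene lists and paralog groups were chosen with earlier results of these data known.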

Additional observations from a re-analysis of the deposited data

Results flagged for a closer look

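Of the 31 members named by the rule, 3 had 1 array of the 4 young ovule arrays far from the others, by the gap to its nearest neighbour divided by the range of the 4 (above the Dixon 95% critical value). Chance gives such a gap in about 1 of 20 groups. AT1G61580 read 5.524 on AIC 1, below the other 3 (ratio 0.917). AT4G10450 read 6.265 on nucellus 2 (ratio 1), where the other 3 values were equal, so this gap is small in size. AT5G39740 read 6.887 on AIC 1, above the other 3 (ratio 0.847).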

How the results depend on the processing

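In each of the 5 comparisons 0 members passed the threshold under every alternative run, which says little in a design this small. After quantile normalization the members' median difference was -0.178 for mature against young (-0.645 as deposited), -0.0496 for the egg cell (0.466), -0.186 for the central cell (-1.03) and 0.385 for the synergid cells (0.572), a sign change for the egg cell. With each array left out in turn the median ran from -0.097 to 0.157 for AIC minus nucellus (0.0646), with -0.097 without nucellus 2 and -0.0123 without AIC 2, and from -0.876 (without the egg cell array) to -0.191 (without the central cell array) for mature minus young. Among single members, the AIC minus nucellus difference ran from -0.585 to 0.136 for AT3G58700, from -0.524 to 1.40 for AT2G33370 and from -0.0684 to 0.942 for AT3G09630, and mature minus young ran from -0.0666 to 0.481 for AT1G04480, with -0.0334 without nucellus 2. The count of members that moved by over 1 from their paralog group mean was 7 without the central cell array, an alternative chosen after seeing the data. The cause of these changes was not tested. For single members, 508 values under the alternatives were classed as the same, 5 as reversed and 7 as moved. For paralog ranges, the same meant a change below the SD within pairs. Many values could not change: a trended prior or a gene filter leaves a difference as it is. Leaving out an AIC or nucellus array does not alter the differences between gametophyte cells. The count is therefore no measure of stability. Some differences kept their direction at a much smaller size. Without the central cell array, mature minus young was -0.21 for AT1G67430, -0.19 for AT3G05590 and 0.03 for AT2G44120.

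Replicate numbers did not pair the samples (r of the replicate differences of AIC and nucellus 0.0314 over all genes). With the number as a replicate block, 0 genes passed, 869 had an unadjusted p under 0.05 (819 without it), 3 of them members (4 without it), and the members' median stayed at 0.0646.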

Other observations

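Nuclear genes of plastid 50S proteins, which serve the ribosome of another compartment, differed from the cytosolic members in signal level and, as deposited, in the stage comparison. Of 23 listed, 21 were measured, and their median lay between 4.52 (synergid cells) and 5.23 (egg cell), above the median of all genes and far below that of the members, with 7 to 12 in the top 25%. The 12 were in the egg cell. Their median difference between the mature cells and the young ovule was 0.05, with 12 higher and 9 lower, and it was 0.05 for all genes too. For the members it was -0.65 as deposited and -0.18 after quantile normalization, and for the 869 strong genes -0.71 as deposited. The part of signal strength in this contrast was not tested. The egg cell was above the mean of the central and synergid cells by a median of 0.43, against -0.12 for all genes. With limma 0 of 21 passed an adjusted p of 0.05 in either direction. In the egg cell comparison 5 of the 21 had an unadjusted p under 0.05, against 17.1% of all genes.

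The 18 listed factors of 60S assembly and the nucleolus were all measured. Their median was highest in the egg cell, at 6.01, and lowest in the central cell, at 5.28, and on the other arrays it lay between 5.52 and 5.91. The egg cell was above the mean of the central and synergid cells by a median of 0.80, with 13 higher and 5 lower. With limma 6 of the 18 had an unadjusted p under 0.05, against 17.1% of all genes, and 0 passed the adjusted threshold. For the synergid cells against the mean of the egg and central cells, the median difference was -0.19 for these factors and 0.57 for the members. For the members it was 0.38 after quantile normalization, and for the 869 strong genes 0.29 as deposited. The part of signal strength was not tested here either.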
